A study of Mus musculus with 20 samples.

Results

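Water channels of the aquaporin family and the vasopressin V2 receptor, Avpr2, were examined in mouse kidney. All probe sets that the platform annotation pairs with a single gene named Avpr2, or Aqp followed by a digit, were taken, whatever their level. These were 9 probe sets of 7 genes (Aqp1, Aqp2, Aqp4, Aqp7, Aqp8, Aqp9 and Avpr2), out of 12422 probe sets, of which 10833 name a single gene and cover 8251 genes in all. Aqp3 was not analysed here. Kidney RNA of C57BL/6J mice was hybridised to 20 oligonucleotide arrays, and every array received the pooled RNA of 3 animals. The 4 groups, of 5 arrays each, were Hyp fed low phosphate, Hyp fed the control diet, normal fed low phosphate and normal fed the control diet. Hyp mice carry a mutation of the X-linked gene Phex and stand in for human X-linked hypophosphatemia, in which the kidney loses phosphate. The labels do not say whether Hyp females carried the mutation on 1 or both X chromosomes. In every group 3 pools came from males and 2 from females, and 3 had been fed the diet for 5 days and 2 for 3 days. Since each value belongs to a pool, the spread between arrays is that between pools and not between single mice.

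Aquaporins are membrane pores that let water follow an osmotic gradient, and some of them, the aquaglyceroporins, also pass glycerol. In the kidney Aqp1 lets the proximal tubule and the thin descending limb reabsorb water at all times, while the collecting duct becomes highly permeable to water when vasopressin acts on Avpr2. The receptor couples to the stimulatory G protein and raises cyclic AMP, protein kinase A phosphorylates Aqp2, and vesicles holding Aqp2 fuse with the apical membrane of principal cells. Water then leaves these cells through Aqp3 and Aqp4 on the basolateral side. Loss of Avpr2 or Aqp2 function causes nephrogenic diabetes insipidus.

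Values are signal intensities on a linear scale that had been brought to a common trimmed mean on every array. Differences were fitted with limma on log2 of intensity plus an offset of 38 and are given on that scale with the standard error (SE), and a probe set was called where its adjusted p lay under 0.05 over the 8695 probe sets bright enough to be tested. Aqp1 and Aqp4 have 2 probe sets each, and below Aqp1 stands for 93330_at and Aqp4 for 102704_at unless the second set, 161559_i_at or 102703_s_at, is named. Of the 9 probe sets 8 were tested, and Aqp9, with a mean intensity of 29.4 against a limit of 79.4, was not. All 18 proximal tubule markers and all 10 thick limb and distal tubule markers on the array were bright enough to be tested, as were 13 of 15 principal cell markers. The 4 arrays numbered 05 to 08, all from females fed for 5 days, stood apart. Their median rank correlations with the other arrays were 0.895 to 0.934, against 0.943 to 0.969 for the other 16, and the ratio of actin signal at the 3′ end to that at the 5′ end, which rises as RNA degrades, was 1.74 to 2.61, against 1.22 to 1.98. Each group holds 1 of these arrays, so results are also given without them. Arrays 09 and 10 are all from Hyp and arrays 19 and 20 all from normal males. In these arrays genotype cannot be told apart from array set. The fitted genotype differences include them, and the pairs of Hyp and normal arrays below do not. Phex itself was dim, at 11.5 to 106 over the 20 arrays, and its probe set was not placed within the gene, so it does not check the genotype labels. No pair of arrays was identical.

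Sequence upstream of the start site is shown for Aqp1 and Aqp2, the water channels of the proximal tubule and of the principal cell, whose diet differences are set side by side below. Each is 250 bases in RefSeq's GRCm38.p6 annotation, on the plus strand, at chr6:55336049-55336298 for Aqp1 and chr15:99578806-99579055 for Aqp2, ending just before the start site. Capitals mark matches to short motifs searched on both strands.
Aqp1: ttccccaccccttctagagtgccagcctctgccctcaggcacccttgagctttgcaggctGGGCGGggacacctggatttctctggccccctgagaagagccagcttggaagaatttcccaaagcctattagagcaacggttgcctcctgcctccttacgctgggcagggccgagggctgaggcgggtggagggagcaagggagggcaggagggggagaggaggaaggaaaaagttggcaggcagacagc
Aqp2: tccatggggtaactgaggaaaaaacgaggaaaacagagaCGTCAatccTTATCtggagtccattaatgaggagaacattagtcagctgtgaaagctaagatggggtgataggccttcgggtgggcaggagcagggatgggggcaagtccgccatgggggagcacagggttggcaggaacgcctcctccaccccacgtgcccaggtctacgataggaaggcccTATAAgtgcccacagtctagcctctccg
The motifs were the cyclic AMP response element half-site CGTCA, the GATA factor core TTATC, the GC box GGGCGG, the TATA box core TATAA and the nuclear receptor half-site AGGTCA, and no match overlapped another. The Aqp2 sequence holds CGTCA starting 211 bases and TTATC starting 202 bases upstream, and TATAA 28 bases upstream. The Aqp1 sequence holds a single match, GGGCGG starting 190 bases upstream, and neither holds AGGTCA. Such matches are common, since 17.9% of 27025 promoters of the same length hold CGTCA, 23.0% TTATC, 32.9% GGGCGG, 23.5% TATAA and 13.8% AGGTCA. GC content is 62% for Aqp1 and 55.6% for Aqp2, against a median of 52% over all promoters.

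Avpr2, the receptor through which vasopressin acts on the collecting duct, was lower on low phosphate than on control diet in both genotypes. Values are listed within each group for the 2 male pools fed for 5 days, the female pool fed for 5 days, the male pool fed for 3 days and the female pool fed for 3 days. In Hyp mice Avpr2 had intensities of 338.1, 295.2, 293.1, 260.3 and 248.9 on low phosphate diet, against 423.4, 372.3, 364.1, 315.3 and 362.9 on control diet. In normal mice it had 294.3, 288.7, 270.6, 200.8 and 293.6 on low phosphate diet, against 329.4, 359.6, 354.7, 337.9 and 318.1 on control diet. The diet groups of normal mice did not overlap, as was the case with the low phosphate arrays below for 0.748% of the probe sets tested, and those of Hyp mice overlapped through a single male pair of values, 338.1 on low phosphate diet and 315.3 on control diet. Means were 287 ± 34.9 on low phosphate and 368 ± 38.4 on control diet in Hyp mice, and 270 ± 39.6 on low phosphate and 340 ± 17.3 on control diet in normal mice (SD, n = 5 each).

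Averaged over genotypes, Avpr2 fell by 0.31 ± 0.066 (SE) on the log2 scale, a difference with a 95% interval of -0.45 to -0.17 (limma, adjusted p = 0.044). It was the only one of the 8 probe sets tested that was called in this comparison, in which 0.472% of all probe sets were called (41 of 8695). The difference was -0.32 ± 0.094 in Hyp mice and -0.31 ± 0.094 in normal mice, and neither was called on its own (limma, adjusted p = 0.67 in Hyp and 0.29 in normal mice), where 0.15% and 0.184% of all probe sets were. The call lay near the threshold and held in 2 of 20 fits that each left out 1 array, those without array 01 or 16, with adjusted p from 0.040 to 0.10 and differences from -0.34 to -0.28. The same value without arrays 05 to 08 was -0.31 (limma, adjusted p = 0.20).

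The low phosphate and control arrays also form 10 pairs that share genotype, sex, days and run of array numbers, 5 of each genotype. Avpr2 was lower on low phosphate diet in 10 of 10 pairs, with ratios between 0.594 and 0.923 and a median ratio of 0.801. The exact sign-flip permutation test over pairs gave p = 0.00195 (two-sided, unadjusted), the smallest that 10 pairs can give. Of all probe sets tested, 0.909% were lower in every pair. In the 8 pairs without arrays 05 to 08 it was again lower in every pair (exact p = 0.00781, the smallest that 8 pairs can give), as were 1.51% of all probe sets. In whole kidney RNA, fewer cells of a type and less RNA per cell cannot be told apart. The 13 principal cell markers tested had a summed intensity of 11156 ± 1710 on low phosphate and 11234 ± 1410 on control diet in Hyp mice, and 11450 ± 1560 and 11205 ± 1300 on these diets in normal mice (SD, n = 5 each). These sums overlapped between diets in both genotypes. Averaged over genotypes 9 of the 13 genes were higher on low phosphate diet and 0 were called. Their median difference was 0.058, against 0.0061 over all genes tested. The part of principal cell number in the Avpr2 difference was not tested.

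**Figure D1:**
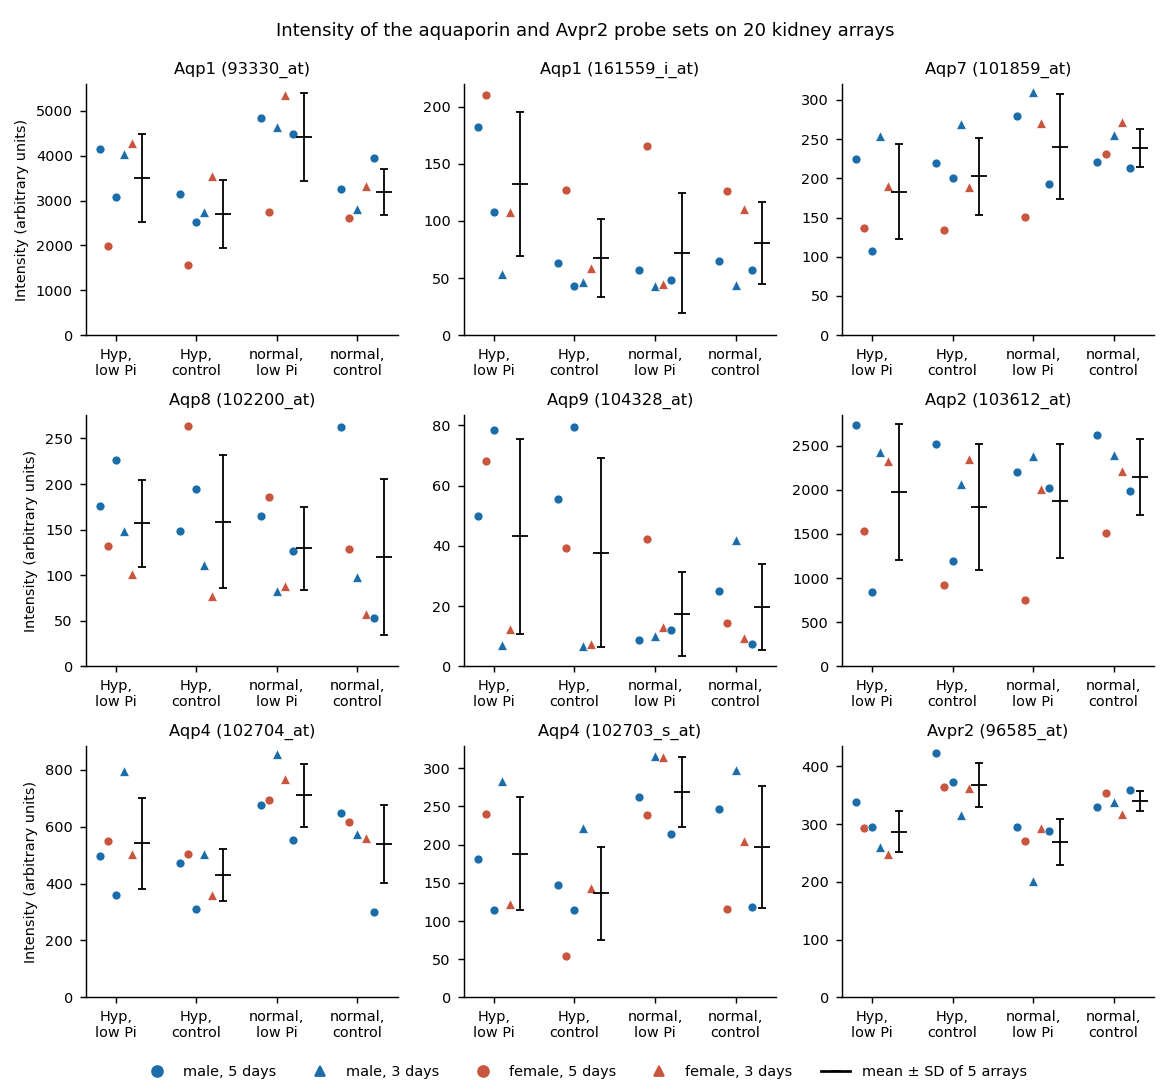
Intensity (arbitrary units, linear axis from 0) of the 9 probe sets on 20 arrays, by group; points are arrays, with shape for days and colour for sex, and bars are the mean ± SD of 5 arrays. In the Avpr2 panel the normal low phosphate arrays lie between 200.8 and 294.3, all under the normal control arrays at 318.1 to 359.6.

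Genes of the pathway that Avpr2 feeds were not called with diet. The list held the stimulatory G protein, adenylyl cyclases, subunits and anchors of protein kinase A, phosphodiesterases, transcription factors that cyclic AMP acts on, and arrestins. Of 30 genes listed, 20 were tested, 0 were called in either direction averaged over genotypes, and 11 were higher on low phosphate diet. Their median difference was 0.034, against 0.0061 over all genes tested. At an unadjusted p under 0.05 there was 1 in each direction in the limma fit, against 4.98% higher and 4.77% lower of all probe sets. These were Akap8, an anchor of protein kinase A (0.24 ± 0.065), and Crem, a cyclic AMP-responsive transcription factor (-0.31 ± 0.11), with adjusted p of 0.15 and 0.29. In the Hyp comparison averaged over diets 0 of these 20 genes were called and 2 had an unadjusted p under 0.05, where 8.65% of all probe sets did and were higher and 6.33% did and were lower. They were the adenylyl cyclase Adcy7 (0.49 ± 0.18) and the phosphodiesterase Pde1a (-0.20 ± 0.084).

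Aqp2, the vasopressin-regulated channel of the apical membrane, varied widely between arrays of the same group. In Hyp mice it had intensities of 2737.7, 838.4, 1539.4, 2427.4 and 2322.3 on low phosphate diet, against 2520.9, 1197.1, 917.8, 2061.5 and 2346.3 on control diet. In normal mice it had 2205.7, 2018.9, 756.0, 2387.8 and 2014.9 on low phosphate diet, against 2621.4, 1984.4, 1505.7, 2400.5 and 2216.6 on control diet. All 4 groups overlapped, and low values came mainly from the females fed for 5 days and from a male pair of Hyp pools. The diet difference averaged over genotypes was -0.08 ± 0.19 with a 95% interval of -0.48 to 0.33 (limma, adjusted p = 0.95), and Aqp2 was higher on low phosphate diet in 4 of 10 pairs. The interval spans the difference measured for Avpr2, so these arrays do not show whether Aqp2 transcript moved less. The genotype difference was -0.13 ± 0.19 (limma, adjusted p = 0.78). In 8 pairs of arrays matched for diet, sex, days and run of array numbers the sign was opposite. Aqp2 was higher in Hyp mice in 5 of these 8 pairs, with a mean difference of 0.08 (exact sign-flip permutation p = 0.609, unadjusted).

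The 29 genes tested of the 34 listed for the movement of Aqp2 vesicles included SNARE proteins that fuse vesicles, Rab proteins, myosins, and the endocytic and sorting machinery. Averaged over genotypes, 0 were called with diet, 12 were higher on low phosphate diet and their median difference was -0.023, against 0.0061 over all genes tested. At an unadjusted p under 0.05 there were Vamp3, a vesicle SNARE (-0.19 ± 0.072), and Myo6, a myosin of endocytic vesicles (0.20 ± 0.086). At that level 4.98% of all probe sets were higher and 4.77% lower. In the Hyp comparison averaged over diets 0 were called either, and the membrane linker Msn (-0.34 ± 0.11), the SNARE Stx3 (-0.25 ± 0.089) and Vamp3 (-0.17 ± 0.072) had an unadjusted p under 0.05 in the limma fit. Of all probe sets 6.33% were lower at that level and 8.65% higher.

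Aqp4, the basolateral exit channel of principal cells, which in mouse is also found in the last part of the proximal tubule, was higher on low phosphate diet in every pair but was not called. It had 495.1, 358.9, 549.9, 796.3 and 502.7 in Hyp mice on low phosphate diet, against 472.3, 309.5, 502.4, 505.2 and 358.4 in Hyp mice on control diet. In normal mice it had 676.0, 554.4, 694.4, 853.4 and 767.3 on low phosphate diet, against 646.5, 299.9, 615.5, 573.4 and 560.7 on control diet. The diet groups overlapped in both genotypes, and the normal control value of 299.9 lay far below the other 4. Averaged over genotypes the difference was 0.35 ± 0.12 (95% interval 0.09 to 0.60; limma, adjusted p = 0.32). Within pairs it was higher on low phosphate diet in 10 of 10, with ratios of 1.05 to 1.85 and a median of 1.26 (exact sign-flip permutation p = 0.00195, unadjusted), and 0.702% of all probe sets were higher in every pair. Without arrays 05 to 08 it was higher in 8 of 8 pairs (exact permutation p = 0.00781), against 1.66% of all probe sets.

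Aqp4 was also lower in Hyp than in normal mice in each pair of arrays matched for diet, sex, days and run of array numbers. In these 8 pairs the Hyp to normal ratio was between 0.639 and 0.933 with a median of 0.762 (exact sign-flip permutation p = 0.00781, unadjusted, the smallest that 8 pairs can give), and 1.38% of all probe sets were lower in every pair. In the fit over all arrays the genotype difference was -0.34 ± 0.12 (limma, adjusted p = 0.21), which was not called, where 1.28% of probe sets were (111 of 8695). The second Aqp4 probe set, whose suffix marks probes shared between transcripts, ran the same way with more spread. It averaged 188 ± 73.4 in Hyp mice on low phosphate and 136 ± 60.7 in Hyp mice on control diet, and 269 ± 45.6 and 197 ± 79.6 on these diets in normal mice (SD, n = 5 each). Its diet difference was 0.42 ± 0.16 and its genotype difference -0.46 ± 0.16 (limma, adjusted p = 0.36 and 0.19), with 8 of 10 diet pairs higher and 7 of 8 genotype pairs lower. Over the 20 arrays the 2 Aqp4 probe sets correlated with a Pearson r of 0.695.

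Aqp1, the constitutive channel of the proximal tubule and thin descending limb, also present in red blood cells and in endothelium of the vasa recta, was higher on low phosphate diet in every pair. In Hyp mice it had 4160.6, 3071.1, 1987.1, 4029.8 and 4273.8 on low phosphate diet, against 3155.7, 2522.9, 1559.6, 2743.2 and 3554.7 on control diet. In normal mice it had 4838.7, 4487.7, 2750.3, 4646.4 and 5359.6 on low phosphate diet, against 3265.1, 3951.7, 2615.0, 2804.4 and 3330.0 on control diet. The female 5-day arrays were lowest in all 4 groups. The diet groups overlapped in both genotypes. The difference averaged over genotypes was 0.40 ± 0.092, with a 95% interval of 0.21 to 0.60, and narrowly missed the threshold (limma, adjusted p = 0.067). It was 0.37 ± 0.13 in Hyp mice and 0.44 ± 0.13 in normal mice (limma, adjusted p = 0.90 and 0.27). In 10 of 10 pairs Aqp1 was higher on low phosphate diet, with ratios of 1.05 to 1.66 and a median of 1.30 (exact sign-flip permutation p = 0.00195, unadjusted). Of all probe sets tested, 0.702% were higher in every pair. In the 8 pairs without arrays 05 to 08 the median ratio was 1.39 and every pair was higher (exact permutation p = 0.00781), as was the case for 1.66% of all probe sets. The difference was called when array set replaced the terms for sex and days (0.40; limma, adjusted p = 0.031).

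Among markers of cell types that hold Aqp1, 12 of 18 proximal tubule genes were higher on low phosphate diet, with a median difference of 0.059 against 0.0061 over all genes. Called were the glucose transporter Slc2a2, higher (0.39 ± 0.064; adjusted p = 0.0074), and the organic anion transporter Slc22a6, lower (-0.48 ± 0.080; adjusted p = 0.0075; both limma). Their part in the Aqp1 difference was not tested. Summed over the 18 genes, intensity ranged from 124630 to 150970 in Hyp mice on low phosphate and from 123850 to 142760 in Hyp mice on control diet, and from 145090 to 166290 and 134690 to 150060 on these diets in normal mice. Endothelial markers ran the other way, with 1 of 10 higher on low phosphate diet and a median of -0.12, and 1 of 5 red blood cell genes was higher, with a median of -0.11. None of the endothelial or red blood cell genes was called with diet, and at an unadjusted p under 0.05 there were the endothelial glycoprotein Emcn (-0.19 ± 0.071), the anion exchanger Slc4a1 (-0.18 ± 0.081) and Rhag, a red cell membrane protein (0.28 ± 0.13). At that level 4.98% of all probe sets were higher and 4.77% lower. The summed intensity of the 10 endothelial markers ranged from 6794.5 to 9268.6 in Hyp mice on low phosphate and from 7257.3 to 9132.6 in Hyp mice on control diet, and from 6253.0 to 7626.8 and 6706.3 to 9174.1 on these diets in normal mice. That of the 5 red blood cell genes ranged from 13039 to 15562 and from 8416.8 to 19930 in Hyp mice, and from 8430.6 to 12999 and 10642 to 15270 in normal mice, low phosphate before control diet. Among thin limb markers 3 of 6 were higher and 0 were called, with Cp, the gene of ceruloplasmin, at 0.54 ± 0.12 (limma, adjusted p = 0.066).

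The second Aqp1 probe set, whose suffix marks a set with fewer probes than usual, was dim and did not follow the first. In Hyp mice it had 182.2, 107.6, 210.3, 53.5 and 107.9 on low phosphate diet, against 62.9, 43.2, 127.4, 46.9 and 58.5 on control diet. In normal mice it had 57.0, 48.2, 165.3, 43.2 and 44.5 on low phosphate diet, against 65.0, 57.2, 125.9, 43.9 and 110.7 on control diet. Here the diet difference was 0.65 ± 0.17 in Hyp mice and -0.16 ± 0.17 in normal mice, and the interaction was 0.81 ± 0.24 (limma, unadjusted p = 0.0031, adjusted p = 1.0). For the first set the interaction was -0.08 ± 0.18, and across the 20 arrays the 2 sets had a Pearson r of -0.447. Statements on Aqp1 that differ between the sets therefore depend on which is read.

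**Figure D2:**
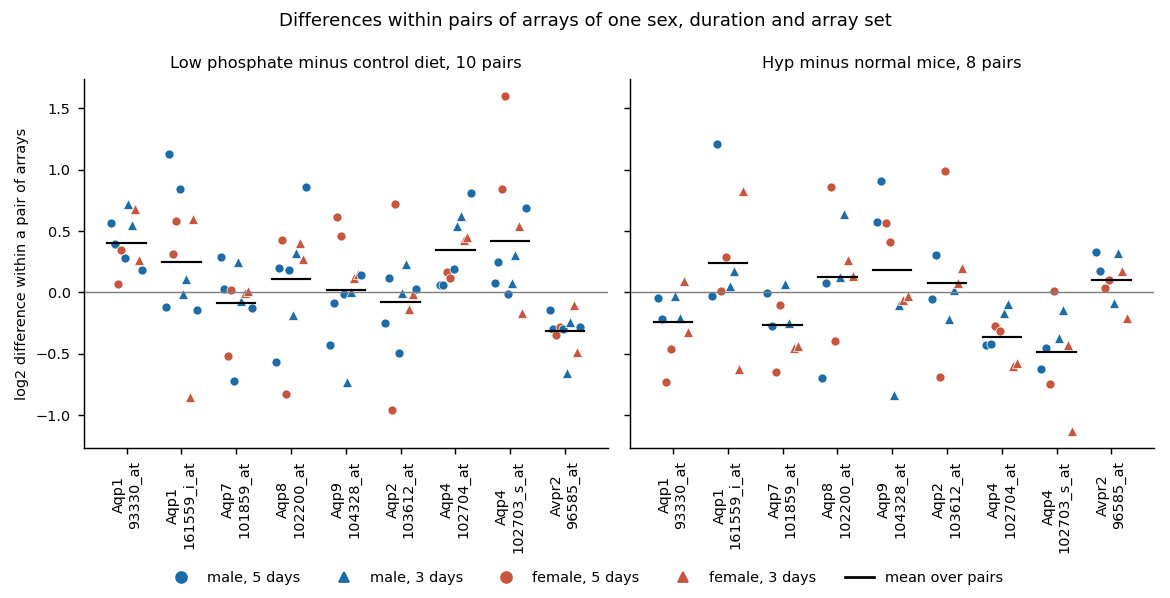
Difference in log2 of intensity plus 38 within pairs of arrays that share sex, days and run of array numbers, for low phosphate minus control diet (left) and Hyp minus normal mice (right); points are pairs and lines their means. All 10 diet pairs lie above 0 for Aqp1 and Aqp4 and below 0 for Avpr2, and all 8 genotype pairs lie below 0 for Aqp4.

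Aqp7, a water and glycerol channel of the brush border in the straight part of the proximal tubule and of fat cells, did not differ with diet beyond its spread. It averaged 183 ± 60.7 in Hyp mice on low phosphate diet and 203 ± 49.0 on control diet, against 240 ± 66.5 in normal mice on low phosphate diet and 239 ± 24.4 on control diet (SD, n = 5 each). The diet difference was -0.08 ± 0.11 with a 95% interval of -0.31 to 0.14 (limma, adjusted p = 0.87), and 5 of 10 pairs were higher. Between genotypes Aqp7 was lower in Hyp mice in 7 of 8 pairs, with a median ratio of 0.813 (exact sign-flip permutation p = 0.0234, unadjusted), and the fitted difference of -0.28 ± 0.11 was not called (limma, adjusted p = 0.24). Adipocyte genes, which mark the fat cells that also hold Aqp7, had a median of -0.195 between Hyp and normal mice, with 2 of 6 higher and 0 called. At an unadjusted p under 0.05 by limma 2 were lower, Lipe and Cd36, as were 6.33% of all probe sets. The summed intensity of the 6 adipocyte genes overlapped between all groups, at 1707.8 to 3025.3 in Hyp mice on low phosphate and 1263.8 to 2338.7 in Hyp mice on control diet, and 1563.6 to 3193.3 and 1423.1 to 3134.6 on these diets in normal mice. Of 18 proximal tubule markers 1 was higher in Hyp than in normal mice, with a median of -0.11 against 0.018 over all genes. Called by limma were 0 higher and 2 lower. The parts of fat and of the proximal tubule in the Aqp7 difference were not tested.

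Aqp8, a water channel best known from gut, liver and pancreas, overlapped between all groups. It averaged 157 ± 47.3 in Hyp mice on low phosphate diet and 159 ± 73.2 on control diet, against 130 ± 45.7 in normal mice on low phosphate diet and 120 ± 85.7 on control diet (SD, n = 5 each). Its diet difference was 0.11 ± 0.17 and its genotype difference 0.30 ± 0.17 (limma, adjusted p = 0.90 and 0.41).

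Aqp9, the glycerol and water channel of liver, was not bright enough to be tested. In Hyp mice it had 49.9, 78.3, 68.3, 7.0 and 12.3 on low phosphate diet, against 55.5, 79.5, 39.4, 6.9 and 7.3 on control diet. In normal mice it had 8.8, 12.1, 42.1, 10.2 and 13.2 on low phosphate diet, against 24.9, 7.4, 14.3, 42.0 and 9.3 on control diet. Intensities above 30 came from 6 Hyp pools, all fed for 5 days, and from 2 normal pools. At this level the arrays carry no estimate of background, so a low value is not shown to be expression.

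The order of the group means was the same for Aqp4 and Aqp1 and another for Avpr2. For Avpr2 both low phosphate groups, at 287 in Hyp and 270 in normal mice, lay below both control groups, at 368 in Hyp and 340 in normal mice. The genotypes did not differ beyond their spread on either diet, with Hyp minus normal differences of 0.08 ± 0.094 on low phosphate and 0.10 ± 0.094 on control diet (limma, adjusted p = 0.81 and 0.78). For Aqp4 the Hyp low phosphate mean of 541 was next to the normal control mean of 539, and the Hyp control mean was lowest at 430 and the normal low phosphate mean highest at 709. For Aqp1 the means were 3504 in Hyp mice on low phosphate and 2707 in Hyp mice on control diet, and 4417 on low phosphate and 3193 on control diet in normal mice. Both genes thus ran upward over Hyp control, normal control, Hyp low phosphate and normal low phosphate mice, and neighbouring groups in this order overlapped. Its genotype difference averaged over diets was -0.31 ± 0.092, with 7 of 8 pairs lower in Hyp mice (limma, adjusted p = 0.14). In the 6 pairs without arrays 05 to 08 the mean difference of Aqp1 was -0.12 and 5 were lower (exact sign-flip permutation p = 0.156). None of the 8 probe sets was called in a genotype comparison, on low phosphate diet (0.357% of all probe sets called), on control diet (0.253%) or averaged, or in the interaction, in which 4 probe sets in all (0.046%) were called. For Avpr2 the interaction was -0.01 ± 0.13, with a 95% interval of -0.29 to 0.27, for Aqp4 it was -0.11 ± 0.24 and for Aqp2 0.38 ± 0.39.

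**Figure D3:**
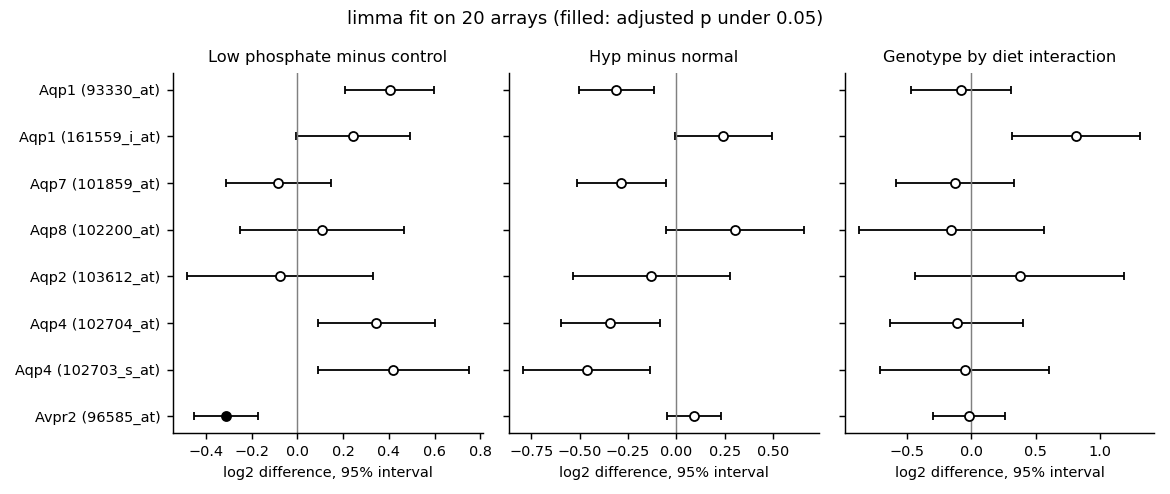
Differences fitted with limma on 20 arrays for the 8 probe sets tested, as log2 difference with 95% interval, for low phosphate minus control diet averaged over genotypes, Hyp minus normal mice averaged over diets, and the interaction; the horizontal scales differ between panels. The filled point, Avpr2 with diet at -0.31, is the only call.

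Diet differences were compared between mice fed for 5 days and for 3 days in a fit with a term for each group at each duration. For Avpr2 the diet difference averaged over genotypes was -0.28 ± 0.093 at 5 days and -0.37 ± 0.11 at 3 days, and the change between them was 0.10 ± 0.15, with a 95% interval of -0.22 to 0.41. For Aqp1 it was 0.31 ± 0.11 at 5 days and 0.55 ± 0.13 at 3 days, a change of -0.25 ± 0.17. For Aqp4 it was 0.24 ± 0.17 at 5 days and 0.51 ± 0.20 at 3 days, a change of -0.27 ± 0.26. The second probe sets went the other way, with 0.57 ± 0.21 at 5 days and 0.19 ± 0.26 at 3 days for Aqp4, a change of 0.39 ± 0.33, and 0.43 ± 0.14 at 5 days and -0.04 ± 0.18 at 3 days for Aqp1, a change of 0.47 ± 0.23. Each of these 5 intervals of the change included 0, and none of the 8 probe sets was called at either duration or for the change. Of all probe sets 0.104% were called at 5 days, 0.046% at 3 days and 0% for the change, where 276 had an unadjusted p under 0.05 in limma. For Aqp2 the diet difference was -0.14 ± 0.27 at 5 days and 0.02 ± 0.33 at 3 days. Between the sexes the diet difference of Avpr2 was -0.32 ± 0.091 in males and -0.30 ± 0.11 in females, and that of Aqp1 was 0.45 ± 0.13 in males and 0.34 ± 0.16 in females.

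**Figure D4:**
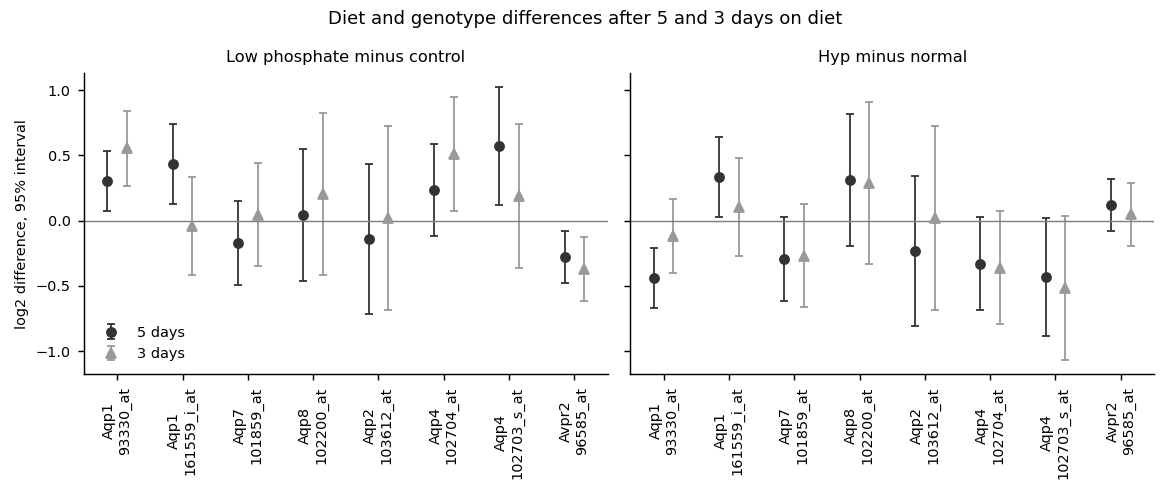
Differences (log2, 95% interval) for low phosphate minus control diet and for Hyp minus normal mice, in mice fed for 5 days (dark circles) and 3 days (grey triangles), from 1 limma fit on 20 arrays. The intervals of the 2 durations overlap for every probe set, with Avpr2 under diet at -0.28 after 5 days and -0.37 after 3 days.

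The level of the water channels differed between 5 and 3 days of feeding averaged over the 4 groups, in a comparison where 40.9% of all probe sets were called (3554 of 8695). Duration is bound to the run of array numbers, so days and array set cannot be told apart beyond what the sexes show. Of the 8 probe sets 6 were called, 4 of them lower at 5 days, as were 20.2% of all probe sets, and 2 higher, as were 20.7%. Aqp2 averaged 1705 in Hyp low phosphate, 1545 in Hyp control, 1660 in normal low phosphate and 2037 in normal control mice at 5 days, against 2375, 2204, 2201 and 2309 in the same order at 3 days, a difference of -0.62 ± 0.20 (limma, adjusted p = 0.021). Lower at 5 days were also Aqp1 (-0.42 ± 0.096; adjusted p = 0.0031), Aqp7 (-0.39 ± 0.11; adjusted p = 0.011) and the second Aqp4 set (-0.46 ± 0.16; adjusted p = 0.033), all by limma. Higher after 5 days of feeding, in the same limma fit, were Aqp8 (0.63 ± 0.18; adjusted p = 0.010) and the second Aqp1 set (0.56 ± 0.12; adjusted p = 0.0023). Avpr2 (0.16 ± 0.069; adjusted p = 0.073) and Aqp4 (-0.18 ± 0.13; adjusted p = 0.26) were not called in that limma fit.

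With array set as a random block none of the 8 was called, with limma adjusted p from 0.066 for Aqp1 to 0.43 for Aqp4, and 12.1% of all probe sets were called. In the 12 male arrays, which do not include arrays 05 to 08, none was called either, as against 0.069% of all probe sets, and the differences were -0.29 ± 0.285 for Aqp2 and 0.06 ± 0.13 for Aqp1. In the 8 female arrays, where all 5-day arrays are 05 to 08, they were -0.95 ± 0.19 for Aqp2 and -0.89 ± 0.17 for Aqp1 (limma, adjusted p = 0.012 and 0.011), while 32.9% of all probe sets were called. For Aqp4 the difference was -0.51 ± 0.20 in males and 0.14 ± 0.14 in females. Of the 13 principal cell markers, 7 were lower at 5 days and 0 higher, with a median of -0.38. They included the cortisol-inactivating enzyme Hsd11b2 (-0.58 ± 0.10) and the keratins Krt7 (-0.72 ± 0.10) and Krt19 (-0.78 ± 0.21). Of the 29 genes of Aqp2 vesicle movement, 10 were lower and 2 higher, among them Rab7 (-0.71 ± 0.10), a Rab of late endosomes, Ap2m1 (-0.75 ± 0.13), a clathrin adaptor subunit, and Snap23 (0.60 ± 0.13), a SNARE, and of the 20 genes of the cyclic AMP pathway 3 were lower and 2 higher. Called in either direction were thus 7 of 13, 12 of 29 and 5 of 20, to be read against 40.9% of all probe sets.

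**Figure D5:**
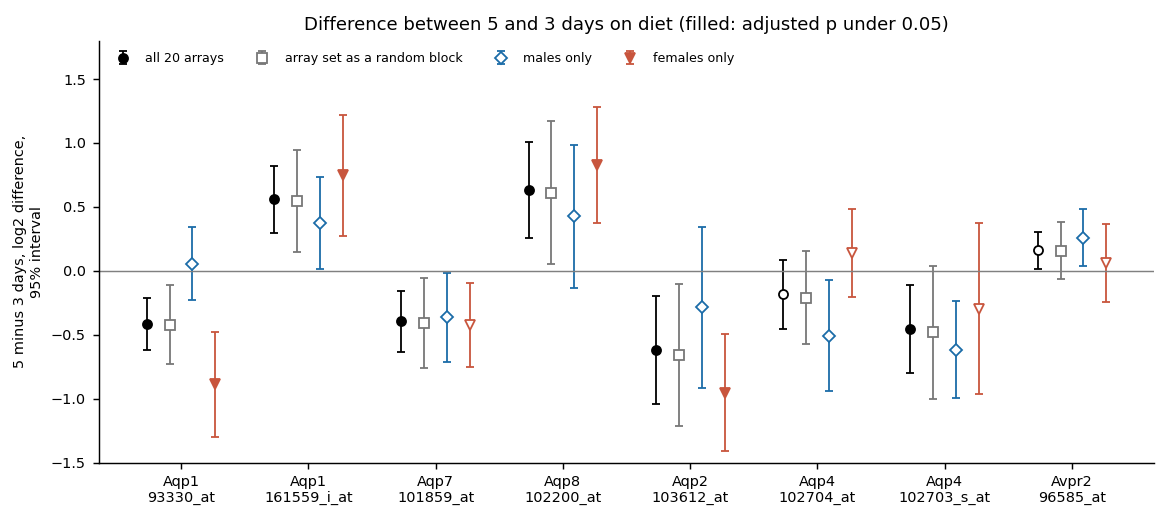
Difference between 5 and 3 days on diet (log2, 95% interval) for the 8 probe sets tested, from all 20 arrays, with array set as a random block, in males and in females. For Aqp1 the difference is -0.42 over all arrays, 0.06 in males and -0.89 in females.

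Males and females differed, with adjusted p under 0.05, in 1 of the 8 probe sets, the second Aqp1 set, which was lower in males (-0.62 ± 0.12; limma, adjusted p = 0.0034), where 16.6% of all probe sets were called. Aqp1 had the opposite sign (0.25 ± 0.096; adjusted p = 0.087 in the same limma fit), and Avpr2 was at -0.03 ± 0.069. Every array set held a single sex, and the female 5-day arrays are those that stood apart, so sex and array set cannot be fully told apart. Of all probe sets 1445 were called for sex, against 97 with array set as a random block and 47 at 3 days only. At 3 days only the sign of the Aqp1 difference turned round, so no direction with sex is drawn for it.

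Across the 20 arrays 28 correlations among the 8 probe sets were computed, with p from 100000 permutations and Benjamini-Hochberg adjustment. Besides the pair of Aqp4 probe sets (adjusted p = 0.0085), 6 had an adjusted permutation p of 0.036 or less for Pearson's r, and 4 of these 6 involve Aqp7. Avpr2 and Aqp4 ran in opposite directions (r = -0.609, permutation p = 0.0041; Spearman's rho = -0.666; both adjusted p under the threshold at 0.036 and 0.022). This r was -0.553 without the 2 arrays farthest from the median, -0.637 without arrays 05 to 08 and -0.701 with values centred on each array set. Avpr2 and Aqp1 gave r = -0.427 over all arrays (adjusted permutation p = 0.11) and -0.72 with values centred on array set. Aqp2 correlated with Aqp7 (r = 0.741, adjusted permutation p = 0.0085; rho = 0.487, adjusted permutation p = 0.11), and this fell to 0.288 with centred values. Aqp2 and Avpr2 gave r = -0.0359. Arrays share diet, set and quality, so these values describe the 20 arrays.

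By Pearson r over the 20 arrays, the genes whose pattern was most like that of Avpr2 were Coro1a, Fn1, Col6a3, Gldc and Idh3a, among 6432 genes with 1 probe set each, with r from 0.786 down to 0.673. With values centred on array set r was 0.784 for Coro1a, an actin-binding protein of leukocytes, and 0.765 for the matrix protein Fn1. For Aqp1 they were Gtf2i, Eef2, Ctsa, Cldn5 and Ech1, at 0.919 to 0.885, and centred values gave 0.887 for Gtf2i, a transcription factor, and 0.891 for Eef2, a translation elongation factor. For Aqp2 they were Ptgis, Gpaa1, Prpsap1, Mcee and Trir, at 0.922 to 0.894, with 0.545 to 0.709 after centring. For Aqp4 they were Fbxo21, Mau2, Efnb1, Pcm1 and Ccnl2, at 0.844 to 0.686, and Fbxo21, an F-box protein, kept 0.834 after centring.

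Transcripts that respond to the tonicity of the medulla and other genes of water balance were examined beside the channels. Of 9 tonicity genes tested, 0 were called with diet, while 4 were higher and 1 lower on low phosphate diet at an unadjusted p under 0.05 in the limma fit, as were 4.98% (higher) and 4.77% (lower) of all probe sets. These were the taurine transporter Slc6a6 (0.30 ± 0.076), the kinase Sgk1 (0.47 ± 0.13), the heat shock proteins Hspa1b (0.29 ± 0.097) and Hspa1a (0.31 ± 0.13), and the chaperone Hsph1, which was lower (-0.34 ± 0.088). Their adjusted p ran from 0.126 to 0.43. Among 18 transcription factors of the collecting duct 0 were called with diet or genotype by limma, and at an unadjusted p under 0.05 there were 2 with diet, Ehf (0.29 ± 0.099) and Hoxb9 (-0.36 ± 0.17), and 4 with genotype. Of these 4, 3 were higher and 1 lower in Hyp mice. At that level 4.98% of all probe sets were higher and 4.77% lower with diet, and 8.65% higher and 6.33% lower with genotype. Between genotypes, where 1.28% of all probe sets were called, the intercalated cell, principal cell and thin limb lists each held 1 called gene. Of 4 intercalated cell markers tested it was Slc4a1, the basolateral anion exchanger, higher in Hyp mice (0.35 ± 0.081; limma, adjusted p = 0.043), a gene also of red blood cells, 5 of 5 of which were higher in Hyp mice with a median of 0.37. Of the 13 principal cell markers, the potassium channel Kcnj1 was called, higher in Hyp mice (0.33 ± 0.069; limma, adjusted p = 0.024). The list as a whole did not rise with it, since 5 of the 13 were higher, with a median of -0.043 against 0.018 over all genes. At an unadjusted p under 0.05 in that limma fit 1 was higher and 3 were lower in Hyp mice. With diet 0 of the 13 were called, and Kcnj1 was at -0.16 ± 0.069 with an unadjusted p of 0.039 in the limma fit. Kcnj1 was also on the list of water balance genes, of which 7 of 29 listed were tested. It was the only one of these 7 called between genotypes. Of the 7, 6 were higher in Hyp mice, with a median of 0.037 against 0.018 over all genes. With diet 0 of the 7 were called and 3 were higher on low phosphate diet, with a median of -0.031. Of 6 thin limb markers Cp, which encodes ceruloplasmin, was called higher in Hyp mice (0.51 ± 0.12; limma, adjusted p = 0.0497). Of these 6 markers 3 were higher in Hyp mice, with a median of -0.012, and 1 was lower at an unadjusted p under 0.05 by limma. The proximal tubule list held 2 called genes of 18 tested, lower in Hyp mice. Of its genes 1 was higher in Hyp mice, with a median of -0.11 against 0.018 over all genes. At an unadjusted p under 0.05 by limma 6 were lower and 1 was higher. The thick limb and distal tubule list held 1 gene called higher and 1 called lower of 10 tested. The part of the proximal tubule in the genotype differences of Aqp1, Aqp4 and Aqp7 was not tested.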

How the data were processed

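The deposited signal intensities, 1 per probe set and array, were scaled by the authors to a common trimmed mean on each array, as seen from the deposited values, whose mean after trimming 2% at each end was 500.254 to 500.309 on the 20 arrays. The scanner software and the summary method are not given in the sources used here. After 66 control probe sets were set aside, 12422 remained, of which the platform annotation names 1 gene for 10833, several for 396 and none for 1193. Symbols were updated through RefSeq, where 10817 matched. No detection calls were used, and the number of arrays limits the precision.

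Before log2 was taken, 38 was added to each intensity, the value that 20% of all intensities lie under, and probe sets with a mean under the 30th percentile (79.44) left out, which kept 8695. Groups were compared with limma 3.58.1 in R 4.3.3, with a term for group and terms for the strata of sex and days (13 residual degrees of freedom), and Benjamini-Hochberg adjustment over all 8695. Fits with a term for each group at each duration, or in each sex, gave the differences within them. Array pairs and sign-flip tests, the random block, and the splits of days by sex and of sex by days were added after the data were seen. On simulated data with 200 changed probe sets the diet comparison averaged over genotypes recovered 26.7% of those raised by 0.3, 66% of those raised by 0.5 and 96.3% of those raised by 1 (log2). In normal mice alone it recovered 4.33% of those raised by 0.3 and 35% of those raised by 0.5. The simulated noise was independent between arrays, whereas the correlation within array sets was 0.303 in the data. These rates therefore need not hold for the real arrays. Correlations and plots used Python 3.11.15 with pandas 2.3.3, NumPy 2.4.6, SciPy 1.17.1 and matplotlib 3.10.9.

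The members and gene lists were chosen with earlier results of these data known. The genes named by likeness were the 5 with the highest Pearson r over all arrays, and from each list those past an adjusted p of 0.05 in a main comparison, and otherwise up to 4 with the smallest p. Listed genes named beyond this, where a count was 5 or fewer, were chosen after their values were seen. Arrays were treated as separate samples, so a p-value rests on how pools of 3 mice differ.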

Additional observations from a re-analysis of the deposited data

Results flagged for a closer look

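Of 36 sets of 5 arrays (9 probe sets in 4 groups) examined for a single array far from the rest, 6 held one, where the gap to the nearest array over the whole range passed Dixon's limit of 0.710. Chance gives about 1 in 20 for 5 independent values from 1 normal distribution. Each set here mixes sexes, durations and array sets, so the count cannot be judged against that rate. On low phosphate diet in normal mice, array 06 stood apart for 3 probe sets. It had 165.3 for the second Aqp1 set, with the next array at 57.0, and 756 for Aqp2, with the next at 2014.9. For Aqp9 it had 42.1, with the next at 13.2. In Hyp mice on control diet, array 07 had 127.4 for the second Aqp1 set, with the next at 62.9. Arrays 06 and 07 belong to the female 5-day arrays 05 to 08. For Avpr2 in normal mice on low phosphate diet, array 12, from males fed for 3 days, had 200.8, with the next at 270.6. For Aqp4 in normal mice on control diet, array 19, from males fed for 5 days, had 299.9, with the next at 560.7.

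Aqp9, which was not bright enough to be tested and may not be above background, had mean differences of Hyp minus normal arrays within pairs that were opposite in sign at the 2 durations. The mean was 0.614 on the log2 scale at 5 days, higher in 4 of 4 pairs, and -0.255 at 3 days, lower in 4 of 4 pairs. The 3-day mean rests on 1 pair at -0.833, with 6.9 in Hyp and 42.0 in normal mice on control diet, while the other 3 pairs lay between -0.0991 and -0.0256 at intensities of 7.0 to 13.2. No direction is drawn from these values, and the difference between durations was not tested.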

How the results depend on the processing

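For the 8 probe sets in 9 comparisons, which make 72 results, 2589 values were recomputed under other settings, and 2510 kept their side of the threshold. In 98 a difference that was not called changed sign. Apart from fits that left out 1 array, 26 calls ended and 16 were made, and 2 values turned round, both of Aqp1. All adjusted p are from limma.

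The fall of Avpr2 with diet kept its size but not its call with an offset of 100 (-0.266; adjusted p = 0.051), with no intensity filter (-0.314; 0.0716), with trended and robust variances (-0.314; 0.0523), with no terms for sex and days (-0.314; 0.249), without arrays 05 to 08 (-0.314; 0.201) and without arrays 09, 10, 19 and 20 (-0.319; 0.101). It was -0.32 in males only, -0.303 in females only, -0.275 at 5 days only and -0.371 at 3 days only, none of them called, and -0.34 to -0.282 leaving out 1 array. The rise of Aqp1 with diet, 0.405, was called with an offset of 100 (0.397), quantile normalization (0.435), the filter at the median (0.405), trended and robust variances (0.405), array set as a block (0.405) or random block (0.405) and array weights (0.473; in normal mice 0.57), and ran from 0.365 to 0.459 leaving out 1 array, with the call made without array 05 or 10. With array weights the genotype difference of the second Aqp4 set was called (-0.507).

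Between 5 and 3 days, array set as a random block ended the calls of Aqp1 (-0.423), the second Aqp1 set (0.546), Aqp2 (-0.659), the second Aqp4 set (-0.48), Aqp7 (-0.411) and Aqp8 (0.612). In males only these were 0.0566, 0.373, -0.287, -0.619, -0.364 and 0.427 in the same order, so that Aqp1 turned round, and in females only the calls of Aqp7 (-0.423) and the second Aqp4 set (-0.297) ended. The second Aqp4 set was -0.337 without arrays 09, 10, 19 and 20 and -0.593 to -0.343 leaving out 1 array, where 8 of 20 fits ended its call. Aqp2 ran from -0.713 to -0.519, uncalled without array 06, and Avpr2 from 0.122 to 0.194, called without array 11 or 16. Aqp1 between males and females turned to -0.226 at 3 days only, and its correlation with Aqp2 to -0.102 with values centred on array set.

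Of all probe sets, the diet comparison averaged over genotypes called 41, against 97 with array set as a block or array weights, 80 with it as a random block, 20 without arrays 05 to 08, 16 with no terms for sex and days, 2 at 5 days only or in males only, 0 at 3 days only (1035 at an unadjusted p under 0.05) and 0 in females only (601 unadjusted), and 25 to 45 leaving out 1 array. The genotype comparison called 111, against 187 with array weights, 73 without arrays 09, 10, 19 and 20, 61 without arrays 05 to 08, 29 with no terms for sex and days, 12 in males only, 3 at 5 days only, 8 at 3 days only and 0 in females only (549 unadjusted), and 66 to 100 leaving out 1 array. The comparison of days called 3554, against 1056 with the random block and 6 in males only, and that of sex 1445, against 2231 at 5 days only, 97 with the random block and 47 at 3 days only.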
